A study of Homo sapiens with 21 samples.

Results

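The genes described are those for the receptors of glutamate, GABA and glycine, the main fast transmitters of the central nervous system, together with GRIP1 and GRIP2, which encode scaffold proteins that bind AMPA receptor subunits. They were chosen by symbol, with earlier results of these data known. The symbols cover AMPA (GRIA), kainate (GRIK), delta (GRID) and NMDA (GRIN) receptor subunits and metabotropic glutamate receptors (GRM). They also cover GABA-A (GABR), GABA-B (GABBR) and glycine (GLR) receptor subunits and the GRIP genes. The count table held 54 such genes, and 40 of them were among the 19874 features of the authors' normalized table, whose features have 10 or more counts in 3 or more samples. These 40 were all tested, and 25 of them had at least 10 reads in each of the 21 libraries. The remaining 14 genes, among them GLRA1, GLRA2, GABRA4, GABRB1, GRIK1, GRIN2C and GRM6, had 1 to 97 reads in total over the 21 libraries and were not tested as members.

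The libraries came from polyA RNA of H9, an established human embryonic stem cell line, in a transgenic line with the genotype TRE3G-2xFLAG GSX2 WT, in which doxycycline induces tagged wild-type GSX2. All groups, controls included, carried this transgene and were differentiated as monolayers toward progenitors like those of the LGE (lateral ganglionic eminence), from which striatal neurons arise. The medium held LDN193189, SB431542 and XAV939, then LDN193189 and SB431542, then IWP2 and Activin A. Cells were collected at day 10 (Day 10) and 12, 24 and 48 h later without doxycycline (NoDox) or after 100 ng/mL doxycycline for 12 h from day 10 (Dox), with 3 libraries in each of 7 groups. The Dox samples at 24 and 48 h thus follow withdrawal of the drug. Doxycycline was never given to cells that lack the transgene, so drug and transgene cannot be told apart, and the labels do not say whether the 3 libraries of a group come from different dishes. The p-values reflect the spread among these libraries and no more.

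GSX2 is a homeobox transcription factor of LGE progenitors. Ionotropic receptors are ion channels: AMPA, kainate and NMDA receptors are tetramers that excite the cell when glutamate binds, whereas GABA-A and glycine receptors are pentameric chloride channels. Metabotropic glutamate receptors and the GABA-B receptor act through G proteins. In the embryonic forebrain several of these receptors are made by progenitors and newborn neurons before synapses form, and GABA can depolarize such immature cells.

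Libraries held 14.4 to 33.8 M counts. Levels are in CPM, the count scaled to library size after TMM adjustment. In the smallest library 0 reads allow up to 0.211 CPM, from 3 counts and for counting error only. The transgene was at 745 to 951 CPM in the 12 h Dox libraries, 13.6 to 25.2 CPM at 24 h, 0.877 to 0.970 CPM at 48 h and at most 0.523 CPM in every other library. The LGE label was checked against 13 markers that summed to 355 to 386 CPM at Day 10. The induced gene GSX2 and a listed marker that is not reported here were left out. SP8 was at 179 ± 3.52 CPM and DLX2 at 27.5 ± 6.93 CPM (SD, n = 3), and GSX1 alone was at 0 reads in a whole group, 12 h Dox. The 12 h Dox replicate 3 and Day 10 replicate 1 stood apart from their groups, by a chi-square over its degrees of freedom of 10.65 to 25.28 in pairs with the other replicates. All other replicate pairs gave 1.833 to 5.45.

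Per kb of exon, 2 receptor genes stood far above the others. GRIK5, a high-affinity kainate receptor subunit that needs a partner of the GRIK1 to GRIK3 group to form a channel, had a mean of 17 CPM per kb over the 7 groups. GABBR1, the ligand-binding subunit of the GABA-B receptor, had 11 CPM per kb. GRIN2D, an NMDA subunit prominent in embryonic brain, followed at 5.7, GRIP1 at 3.15, GRIN3B at 2.94 and GRM3 at 2.28 CPM per kb. GRIN1, the obligatory NMDA receptor subunit, was at 0.0661 CPM per kb, and the lowest, GRM4, at 0.0216 CPM per kb. GRIK5 and GABBR1 together made 44.7% to 52.9% of the summed CPM of the 40 genes, depending on the group, and that sum was 345 to 430 CPM in the group means. The exon length is that given in the count table, which merges all annotated isoforms, so a gene with long or many annotated exons is placed lower.

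**Figure D1:**
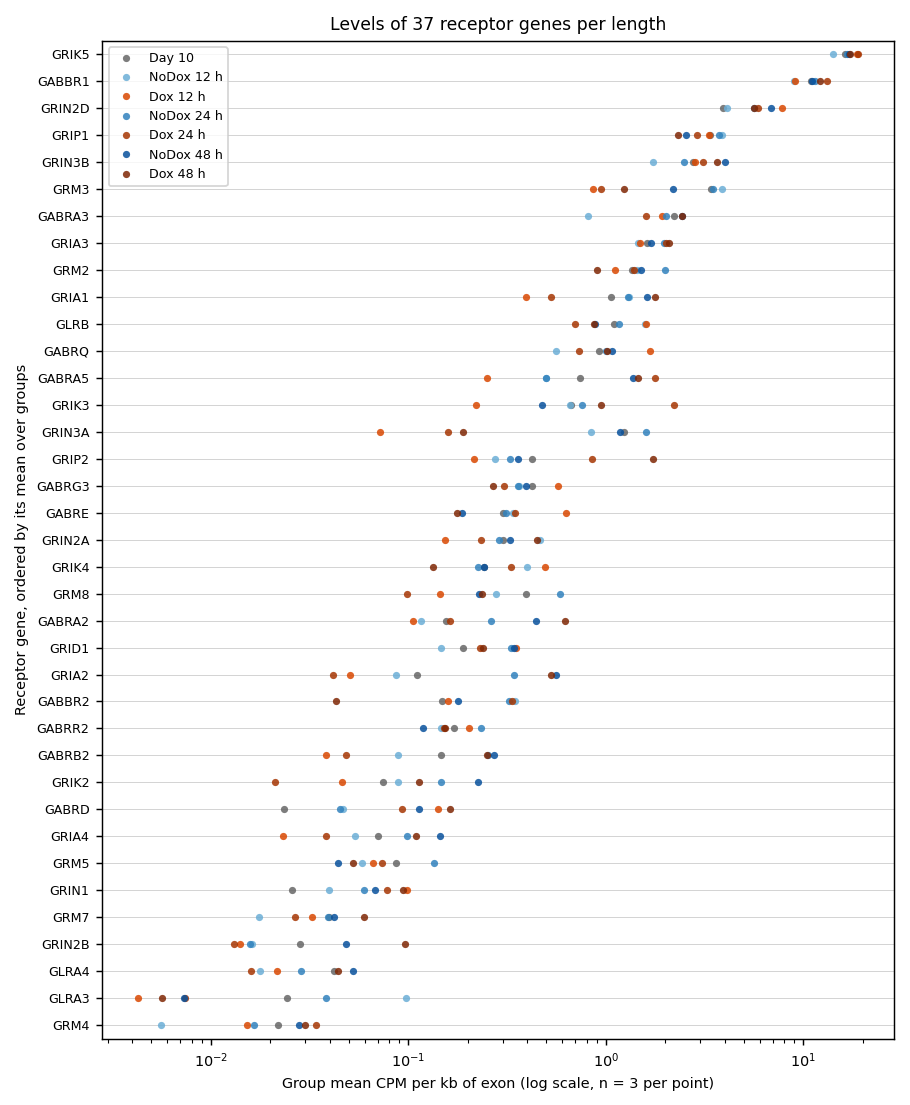
Group mean level of 37 of the 40 receptor genes, in CPM per kb of exon on a log axis, with 1 point for each of the 7 groups (n = 3 libraries each) and genes ordered by their mean over groups. GRIK5 and GABBR1 lie above all others in every group, while GRIN3A and GRIA2 spread widely between groups.

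Genes that are needed together differed in level. The ratio of GRIN2D to GRIN1, per length, ran from 44.9 to 206 over 20 of the libraries. It was 322 in 12 h NoDox replicate 2, where GRIN1 had 3 reads. At 48 h it was 65.3, 77.1 and 44.9 in the Dox libraries and 109, 87.6 and 107 in the NoDox libraries. GABBR1 stood 20.3 to 391 times above GABBR2, its partner for reaching the cell surface. It was 236 to 391 times above it in the 48 h Dox libraries against 55.0 to 66.2 times in the 48 h NoDox libraries. GRIK5 was 57.6 to 81.1 times the summed GRIK1, GRIK2 and GRIK3 level per length at 12 h of Dox and 7.49 to 9.41 times at 24 h of Dox. The NoDox libraries of those times were at 16.8 to 20.7 and 15.9 to 19.1. GRIA2 is the AMPA subunit that makes the channels impermeable to calcium. The summed level per length of GRIA1, GRIA3 and GRIA4 was 44.5 to 95.2 times that of GRIA2 in the 24 h Dox libraries. It was 7.34 to 13.7 times that of GRIA2 in the 24 h NoDox libraries. At 48 h these AMPA ratios were 6.67 to 8.53 with Dox and 5.52 to 7.58 without. No test was run on these ratios, which combine the genes tested singly below.

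Doxycycline went with changes in both directions at 12 h and mostly with lower levels at 24 h. Differences were called by edgeR's quasi-likelihood test at an adjusted p (Benjamini-Hochberg over all 19655 features tested) below 0.05. They are given on the log2 scale, as fold change ± approximate standard error, from 3 libraries per group. At 12 h, 11 of the 40 receptor genes were higher with Dox and 13 lower, where 39.7% of all features were called in either direction, 19.8% higher and 19.9% lower. At 24 h, 5 were higher and 18 lower, against 33.9% of all features called, 17% higher and 16.9% lower. At 48 h, 5 were higher and 8 lower, against 18.2% of all features called, 9.23% higher and 8.94% lower. The median log2 fold change of the 40 was 0.02 at 12 h, -0.44 at 24 h and -0.06 at 48 h, and the median over all features tested was 0.008, -0.004 and 0.006.

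The 48 h count of higher genes rested on single libraries: it was 3 without NoDox replicate 2, NoDox replicate 3 or Dox replicate 2 and 2 without Dox replicate 1, and the count of lower genes was 5 without Dox replicate 3. Over the 3 times, 33 of the 40 genes were called at least once and 7 were not (GABBR1, GABRR2, GLRA4, GRIA3, GRM4, GRM5 and GRM7). Of these 7, all but GLRA4 and GRM7 were called under at least 1 alternative, given with each gene. Of the 16 genes called at both 12 and 24 h, 11 moved in the same direction and 5 in opposite directions. Of the 18 genes lower at 24 h, 13 were not called at 48 h. Libraries did not overlap between Dox and NoDox for 26 of the 40 genes at 12 h (46.9% of all features), 25 at 24 h (51.9%) and 16 at 48 h (36%). These 3 comparisons use separate libraries, each Dox group with the NoDox group of its own time. By a test of the difference between times, the Dox effect was higher at 24 h than at 12 h for 5 of the 40 genes and lower for 13 (30.9% of all features called, 16.1% higher and 14.8% lower). It was higher at 48 h than at 24 h for 11 and lower for 3, or 6 without both libraries that stood apart (25.8% called, 12.7% higher and 13.1% lower). It was higher at 48 h than at 12 h for 10, or 6 without the 12 h NoDox replicate 3, and lower for 9 (34.4% called, 17.7% higher and 16.7% lower).

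**Figure D2:**
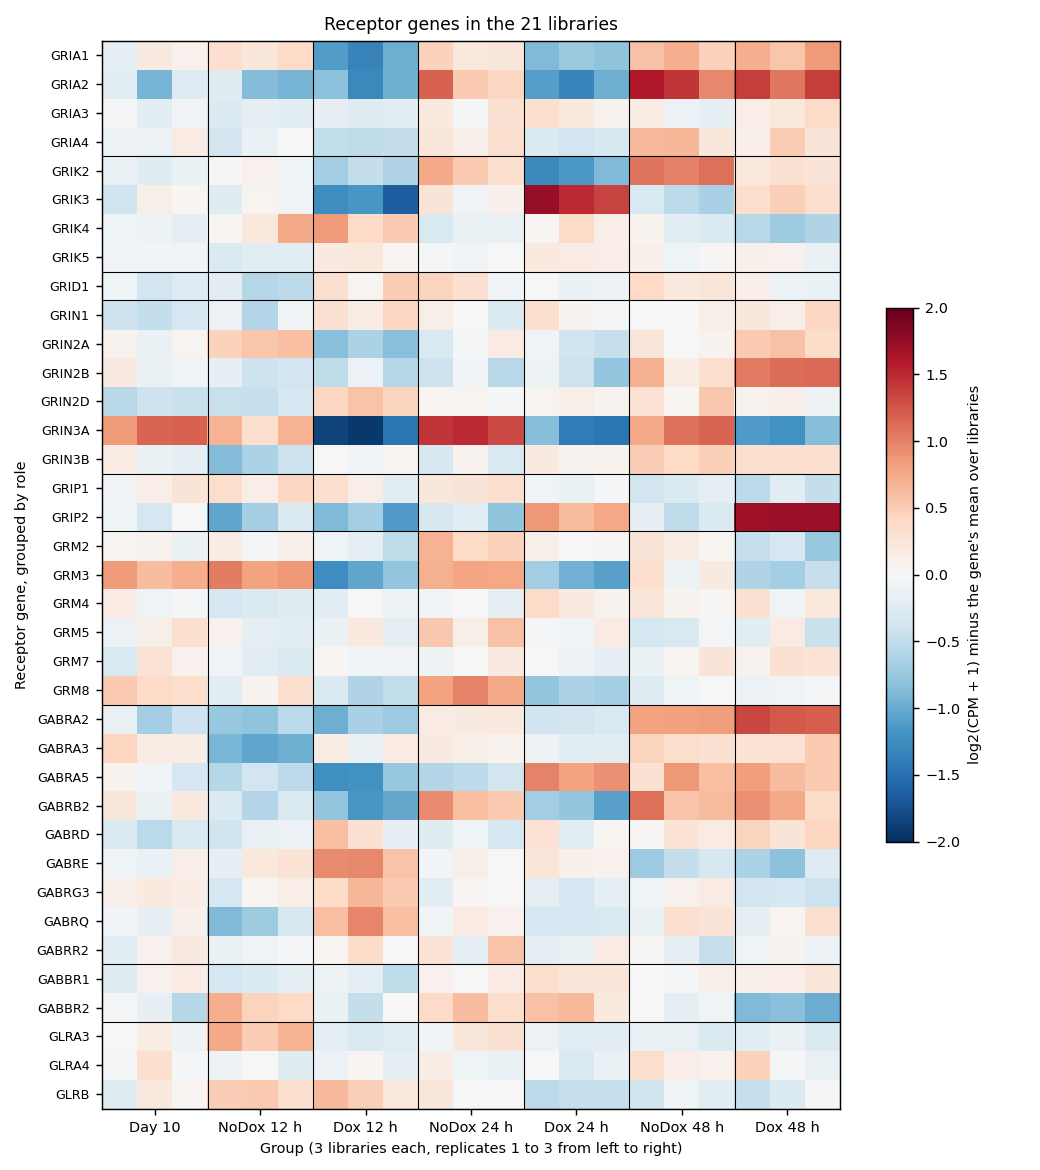
Level of 37 of the 40 receptor genes in each of the 21 libraries, as log2(CPM + 1) minus the gene's mean over libraries (colour scale from -2 to 2), with genes grouped by role and the 3 libraries of a group side by side. GRIN3A and GRM3 are low in all 9 Dox libraries, GRIP2 is highest in the 3 Dox libraries of 48 h, and GRIK3 and GABRA5 are low in Dox at 12 h and high in Dox at 24 h.

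**Figure D3:**
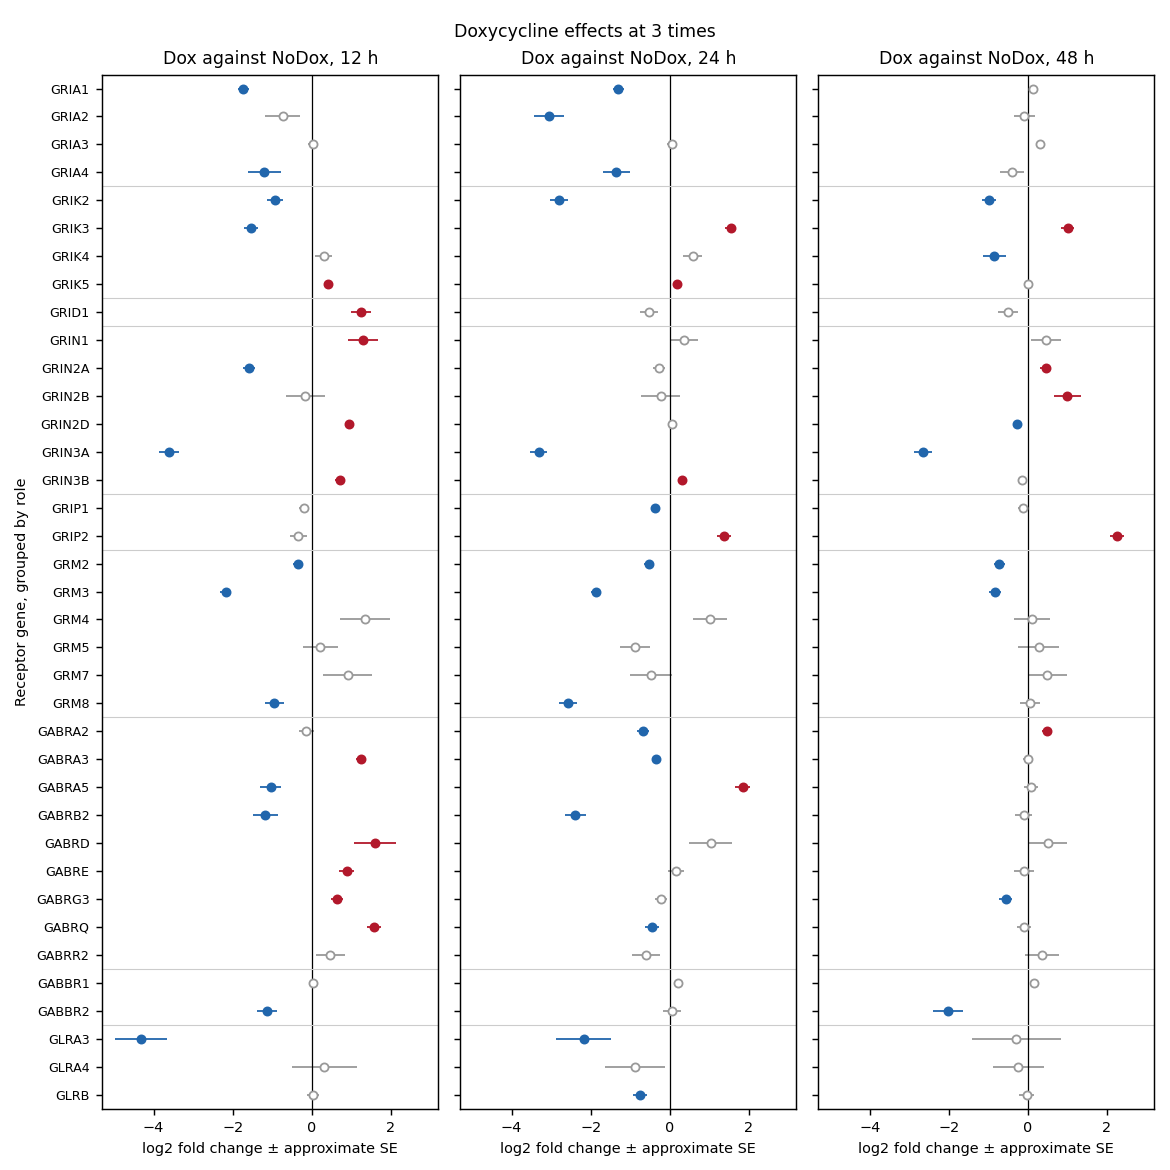
Log2 fold change of Dox against NoDox at 12, 24 and 48 h for 37 of the 40 receptor genes, with the approximate standard error as a bar; filled points passed adjusted p 0.05 (red higher, blue lower), open points did not. The lower calls drawn number 13, 15 and 8 at the 3 times, and GRIN3A lies at -3.61, -3.32 and -2.66.

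Markers of cell types moved with Dox as well. The counts called below stand beside 39.7% of all features called at 12 h, 33.9% at 24 h and 18.2% at 48 h. The 14 neuron markers, none at 0 reads in any group, summed to 1885 to 2210 CPM in NoDox and 1093 to 1296 CPM in Dox at 12 h, with 1 higher and 11 lower. At 24 h they summed to 2317 to 2654 CPM in NoDox and 1669 to 1914 CPM in Dox, with 2 higher and 10 lower. At 48 h the sums were 2305 to 2733 and 2457 to 2728 CPM, with 2 higher and 1 lower. The 10 radial glia markers also had none at 0. Given with NoDox first, they summed to 6976 to 7122 and 3335 to 3563 CPM at 12 h, 6345 to 6400 and 6698 to 7062 CPM at 24 h, and 8223 to 8870 and 9623 to 10111 CPM at 48 h. They counted 9 lower at 12 h, 3 higher and 3 lower at 24 h and 2 higher at 48 h. Of the 8 markers of the cortical excitatory lineage, NEUROD6 was at 0 in 24 h NoDox and 48 h Dox. The 8 summed to 343 to 422 and 19.6 to 23.5 CPM at 12 h, 467 to 515 and 42.4 to 62.6 CPM at 24 h, and 487 to 539 and 210 to 239 CPM at 48 h. At these times 6, 7 and 3 of the 7 tested were lower. The 13 LGE markers leave out GSX2 and a listed gene that is not reported here, so their sums do not stand for the whole list. They summed to 350 to 395 CPM in NoDox and 130 to 154 CPM in Dox at 12 h, with 1 higher and 11 lower. At 24 h they summed to 433 to 489 and 465 to 583 CPM, with 2 higher and 7 lower, and at 48 h to 369 to 446 and 512 to 556 CPM, with 4 higher and 2 lower. The 7 oligodendrocyte lineage markers, none at 0, summed to 806 to 857 and 347 to 404 CPM at 12 h, 605 to 636 and 765 to 912 CPM at 24 h, and 507 to 559 and 738 to 755 CPM at 48 h. Of these, 1 was higher and 4 lower at 12 h, 5 and 2 at 24 h, and 4 and 3 at 48 h. The 5 astrocyte markers, none at 0, summed to 161 to 182 and 57.6 to 60.2 CPM at 12 h, 109 to 115 and 148 to 168 CPM at 24 h, and 144 to 164 and 160 to 189 CPM at 48 h. Of the 4 tested, 1 was higher and 2 lower at 12 h, 2 and 1 at 24 h, and 1 was higher at 48 h. The 6 neural crest markers, none at 0, summed to 25.3 to 27.7 and 55.6 to 63.1 CPM at 12 h, 23.5 to 26.9 and 55.9 to 68.6 CPM at 24 h, and 41.7 to 49.1 and 53.1 to 64.1 CPM at 48 h. Of the 4 tested, 2 were higher and 1 lower at 12 h, 4 were higher at 24 h and 2 at 48 h. The 6 pluripotency markers, with TDGF1 at 0 in all groups but 24 h Dox, summed to 226 to 240 and 135 to 141 CPM at 12 h. Of the 3 tested, all 3 were lower at 12 h, 2 were higher and 1 lower at 24 h, and none was called at 48 h by edgeR (1 had an unadjusted p below 0.05). The 7 blood, microglia and endothelium markers summed to at most 5.55 CPM in any library, with C1QA or PTPRC at 0 in 5 of the groups, and 2 of the 3 tested were lower with Dox at 48 h. The part of these shifts in the receptor results was not tested, and in bulk RNA fewer cells of a type and less RNA per cell cannot be told apart.

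The promoter windows of the 4 genes lower with Dox at all 3 times, GRIN3A, GRM3, GRM2 and GRIK2, and of GRIK3, the kainate subunit lower at 12 h and higher afterwards, are shown because GSX2 is a homeodomain protein and such proteins favour TAAT cores. Each line gives the 250 bases before a RefSeq start (build GRCh38.p14), read 5′ to 3′ along the gene, with capitals marking TAAT on either strand (TAAT or ATTA). The windows are chr9:101738648-101738897, minus strand for GRIN3A, chr7:86643659-86643908, plus strand for GRM3, chr3:51706818-51707067, plus strand for GRM2, chr6:101393458-101393707, plus strand for GRIK2 (the more upstream of its 2 windows) and chr1:37034516-37034765, minus strand for GRIK3.
GRIN3A: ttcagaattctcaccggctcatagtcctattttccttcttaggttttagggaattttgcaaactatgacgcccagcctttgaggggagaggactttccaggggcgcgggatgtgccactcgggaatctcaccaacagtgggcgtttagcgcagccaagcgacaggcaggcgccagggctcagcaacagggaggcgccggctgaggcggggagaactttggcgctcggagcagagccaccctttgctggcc
GRM3: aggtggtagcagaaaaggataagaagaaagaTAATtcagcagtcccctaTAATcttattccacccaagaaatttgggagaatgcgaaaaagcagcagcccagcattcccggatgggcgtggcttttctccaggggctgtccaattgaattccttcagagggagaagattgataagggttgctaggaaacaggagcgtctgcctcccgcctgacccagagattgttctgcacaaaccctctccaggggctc
GRM2: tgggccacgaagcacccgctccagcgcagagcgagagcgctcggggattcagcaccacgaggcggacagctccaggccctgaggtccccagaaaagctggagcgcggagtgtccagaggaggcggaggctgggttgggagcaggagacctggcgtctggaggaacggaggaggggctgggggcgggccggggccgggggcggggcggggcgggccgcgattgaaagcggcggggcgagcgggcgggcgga
GRIK2: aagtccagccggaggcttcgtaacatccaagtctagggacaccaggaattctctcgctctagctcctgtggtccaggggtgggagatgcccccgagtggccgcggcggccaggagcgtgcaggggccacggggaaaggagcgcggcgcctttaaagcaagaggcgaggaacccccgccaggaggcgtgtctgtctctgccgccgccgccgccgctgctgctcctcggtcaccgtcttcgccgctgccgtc
GRIK3: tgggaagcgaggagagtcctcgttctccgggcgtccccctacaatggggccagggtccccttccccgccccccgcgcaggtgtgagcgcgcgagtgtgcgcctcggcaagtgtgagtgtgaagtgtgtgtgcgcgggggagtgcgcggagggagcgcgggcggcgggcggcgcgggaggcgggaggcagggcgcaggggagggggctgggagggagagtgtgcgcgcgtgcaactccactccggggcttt
GRM3 holds 2 such cores in its window and the other 4 windows printed hold none, while the second window of GRIK2 holds 2. RefSeq windows were matched for 28 of the 40 receptor genes (45 windows). TAAT on either strand was in 16 of those 45 and in 47.4% of all 35116 windows of the same length. The longer TAATTA, which contains TAAT and is its own reverse complement, was in none of the 45 and in 4.3% of all windows. These matches describe letters in a short window and say nothing of binding.

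Among receptor genes that averaged 1 CPM or more in either group, GRIN3A had the largest decrease with Dox at each of the 3 times. It encodes a glycine-binding NMDA receptor subunit, found mostly in developing brain, that lowers calcium entry (chromosome 9, 101569352 to 101738647, minus strand, hg38). At 12 h it was at 7.54, 5.58 and 7.56 CPM in the NoDox libraries and 0.465, 0.385 and 0.917 CPM in the Dox libraries, which is a difference of -3.61 ± 0.26 on the log2 scale (adjusted p 2.73e-12). At 24 h GRIN3A stood at 13.2, 13.8 and 12.2 CPM without and 1.94, 1.00 and 0.95 CPM with Dox (-3.32 ± 0.21, adjusted p 2.65e-13). At 48 h, with the transgene again below 1 CPM, GRIN3A was still at 1.42, 1.27 and 1.94 CPM with Dox against 7.91, 10.4 and 10.8 CPM without (-2.66 ± 0.22, adjusted p 1.43e-09). Every Dox library was below every NoDox and Day 10 library. The difference of its Dox effect between 12 and 48 h was 0.95 ± 0.38 (adjusted p 0.0568), on the threshold. Without 12 h Dox replicate 3, which stood apart, it was 1.34 (adjusted p 0.0112), and without both libraries that stood apart the adjusted p was 0.00686. It was also called with DESeq2 (0.0246), with no filter on low counts (0.0270) and without 12 h NoDox replicate 2 (0.0317) or 48 h NoDox replicate 3 (0.0483).

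Of the 6 NMDA receptor subunit genes, 3 were higher and 2 lower with Dox at 12 h, 1 and 1 at 24 h, and 2 and 2 at 48 h, with medians of 0.27, -0.09 and 0.15. Among all features 39.7%, 33.9% and 18.2% were called at these times. GRIN2A, a glutamate-binding subunit that becomes common in mature synapses, was at 8.05, 8.73 and 9.06 CPM in NoDox and 2.68, 3.23 and 2.7 CPM in Dox at 12 h (-1.58 ± 0.16, adjusted p 1.95e-09). Its NoDox level at 12 h was itself called higher than at Day 10. At 24 h its libraries overlapped, at 4.34, 5.46 and 6.39 CPM without and 5.31, 4.00 and 3.8 CPM with Dox. At 48 h it was higher with Dox, 8.49, 8.92 and 7.51 against 6.8, 5.62 and 5.91 CPM (0.45 ± 0.15, adjusted p 0.0349). The 48 h call of GRIN2A did not hold with scaling by library totals (adjusted p 0.0780) or without either of Dox replicates 1 and 2 or NoDox replicates 2 and 3 (0.0987 to 0.143).

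GRIN2D was the NMDA subunit gene with the highest level per length and rose at 12 h, from 22.1, 22 and 23.7 to 41.1, 45.9 and 42.1 CPM (0.93 ± 0.09, adjusted p 1.57e-09). It was at 31.6, 31.6 and 30.2 CPM without and 31.6, 33.2 and 32.1 CPM with Dox at 24 h (0.05 ± 0.09). At 48 h it was lower with Dox (-0.28 ± 0.09, adjusted p 0.0292), a call that ended without NoDox replicate 3 (adjusted p 0.306), NoDox replicate 1 (0.0554) or Dox replicate 3 (0.125). The NoDox level of GRIN3B, a second glycine-binding subunit, was itself called lower at 12 h than at Day 10. GRIN3B was higher with Dox than with NoDox at 12 h (0.71 ± 0.13, adjusted p 7.44e-05) and by less at 24 h (0.32 ± 0.12, adjusted p 0.045). The 24 h adjusted p was 0.0501 with the replicate number as a block, 0.0525 with library totals, 0.0556 with limma and 0.0596 with no filter. It was 0.0703 to 0.225 without any one library other than NoDox replicate 2. GRIN1 had few reads and rose at 12 h, from 0.56, 0.137 and 0.615 to 1.11, 0.885 and 1.27 CPM (1.30 ± 0.38, adjusted p 0.00726), but without NoDox replicate 2 its log2 fold change was 0.87 (adjusted p 0.0687). GRIN2B, a glutamate-binding subunit of early synapses, was at 2.85, 3.08 and 3.09 CPM with Dox and 2.07, 1.07 and 1.36 CPM without at 48 h (1.00 ± 0.34, adjusted p 0.0376). This call ended with limma on the normalized counts (adjusted p 0.133), with library totals (0.0527) and without any one of 5 of the 6 libraries compared (0.0824 to 0.180), all but NoDox replicate 1.

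Of the 4 AMPA receptor subunit genes, 2 were lower with Dox at 12 h and 3 at 24 h, and none was called at 48 h (1 had an unadjusted p below 0.05, and DESeq2 and limma called 0). The medians were -0.97, -1.33 and 0.02, and 39.7%, 33.9% and 18.2% of all features were called at the 3 times. GRIA1 (chromosome 5, 153489615 to 153813869, plus strand) was at 10.3, 9.51 and 10.8 CPM without and 3.15, 2.54 and 3.57 CPM with Dox at 12 h (-1.73 ± 0.14, adjusted p 4.24e-11). At 24 h the values were 11.4, 9.44 and 9.5 and 3.87, 4.39 and 4.11 CPM (-1.30 ± 0.14, adjusted p 7.07e-09). By 48 h the groups overlapped, at 12.5, 13.8 and 11.3 CPM without and 13.9, 12.3 and 15.3 CPM with Dox (0.14 ± 0.12, adjusted p 0.487). GRIA2 (chromosome 4, 157204182 to 157387146, plus strand) was at 6.91, 4.03 and 3.65 CPM in the NoDox libraries of 24 h and 0.618, 0.391 and 0.769 CPM in the Dox libraries (-3.06 ± 0.38, adjusted p 1.02e-06). At 12 h the GRIA2 libraries overlapped (-0.74 ± 0.45, adjusted p 0.208), and at 48 h it was at 9.61, 8.43 and 5.75 and 8.06, 6.26 and 8.12 CPM (-0.09 ± 0.26, adjusted p 0.863). The least abundant, GRIA4, was lower at 12 h (-1.21 ± 0.42) and at 24 h (-1.35 ± 0.34). Its 12 h adjusted p of 0.022 became 0.0653 with no filter on low counts, 0.0578 without Dox replicate 2, 0.0533 without NoDox replicate 2 and 0.126 without NoDox replicate 3. GRIA3 ranged over 12.9, 11 and 14 CPM without and 14.3, 13 and 11.8 CPM with Dox at 24 h, with log2 fold changes of 0.02 ± 0.12, 0.05 ± 0.11 and 0.31 ± 0.12 at the 3 times. Its 48 h adjusted p of 0.0611 became 0.0179 without NoDox replicate 1 and 0.0384 without both libraries that stood apart.

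The 4 kainate receptor subunit genes each followed a course of their own. GRIK3 (chromosome 1, 36795527 to 37034515, minus strand) was at 6.06, 7.68 and 6.95 CPM without and 2.54, 2.73 and 1.68 CPM with Dox at 12 h (-1.55 ± 0.18, adjusted p 3.75e-08). At 24 h the order was turned, at 8.95, 6.97 and 7.99 CPM without and 27, 22.6 and 20.4 CPM with Dox (1.54 ± 0.14, adjusted p 2.75e-10), and the 24 h Dox libraries were the highest of all 21. At 48 h GRIK3 was at 5.73, 4.8 and 4.34 and 9.59, 10.6 and 9.58 CPM (1.00 ± 0.16, adjusted p 5.43e-05). GRIK2 (chromosome 6, 100962701 to 102081622, plus strand), another channel-forming subunit, was lower with Dox each time. Its libraries were at 2.39, 2.56 and 2.15 CPM without and 1.07, 1.42 and 1.22 CPM with Dox at 12 h (-0.93 ± 0.21, adjusted p 0.000718). At 24 h they were at 4.69, 3.82 and 3.2 and 0.371, 0.522 and 0.814 CPM (-2.80 ± 0.23, adjusted p 3.99e-11). At 48 h the libraries were at 6.05, 5.77 and 6.22 and 2.9, 3.13 and 3.03 CPM (-0.99 ± 0.18, adjusted p 0.000175). Thus GRIK2 and GRIK3 were called in the same direction at 12 h and in opposite directions at 24 and 48 h.

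The NoDox level of GRIK5 was itself called lower at 12 h than at Day 10, a call lost with no filter and without Day 10 replicate 2 or NoDox replicate 1. With Dox, GRIK5 was a little higher at 12 h, 109, 112 and 99.1 against 78.8, 82.2 and 82.1 CPM (0.40 ± 0.06, adjusted p 8.3e-06), and at 24 h (0.19 ± 0.06, adjusted p 0.0172). The 24 h call ended without Dox replicate 1 (adjusted p 0.0627) or NoDox replicate 2 (0.0633). GRIK4, the other high-affinity subunit, was lower with Dox at 48 h, 1.1, 0.849 and 1.03 against 2.23, 1.63 and 1.52 CPM (-0.85 ± 0.29, adjusted p 0.0405). Without any one of 5 of the 6 libraries, all but NoDox replicate 3, the adjusted p of GRIK4 was 0.0675 to 0.168. The delta receptor gene GRID1, whose product acts in synaptic adhesion more than as a glutamate-gated channel, was higher with Dox at 12 h, 2.22, 1.66 and 2.65 against 1.22, 0.731 and 0.791 CPM (1.24 ± 0.26, adjusted p 0.000293). It was not called at 24 h (-0.53 ± 0.24) or 48 h (-0.51 ± 0.25).

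GRIP2 (chromosome 3, 14489107 to 14556075, minus strand) had the largest increase of any receptor gene at 48 h. It was at 2.19, 3.15 and 4.4 CPM without and 2.58, 3.08 and 1.99 CPM with Dox at 12 h (-0.35 ± 0.21, adjusted p 0.211) and at 4.25, 4.62 and 2.74 and 10.9, 9.18 and 10.2 CPM at 24 h (1.37 ± 0.17, adjusted p 3.36e-07). At 48 h the NoDox libraries were at 4.83, 3.63 and 4.39 CPM and the Dox libraries at 20.2, 20.6 and 20.7 CPM (2.26 ± 0.17, adjusted p 3.14e-10). The groups were apart at 24 and 48 h and overlapped at 12 h. GRIP1, its paralogue, fell at 24 h (-0.37 ± 0.11, adjusted p 0.0107) and was not called at 12 h (-0.21 ± 0.11) or 48 h (-0.13 ± 0.12); its 24 h adjusted p was 0.0571 without Dox replicate 2.

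**Figure D4:**
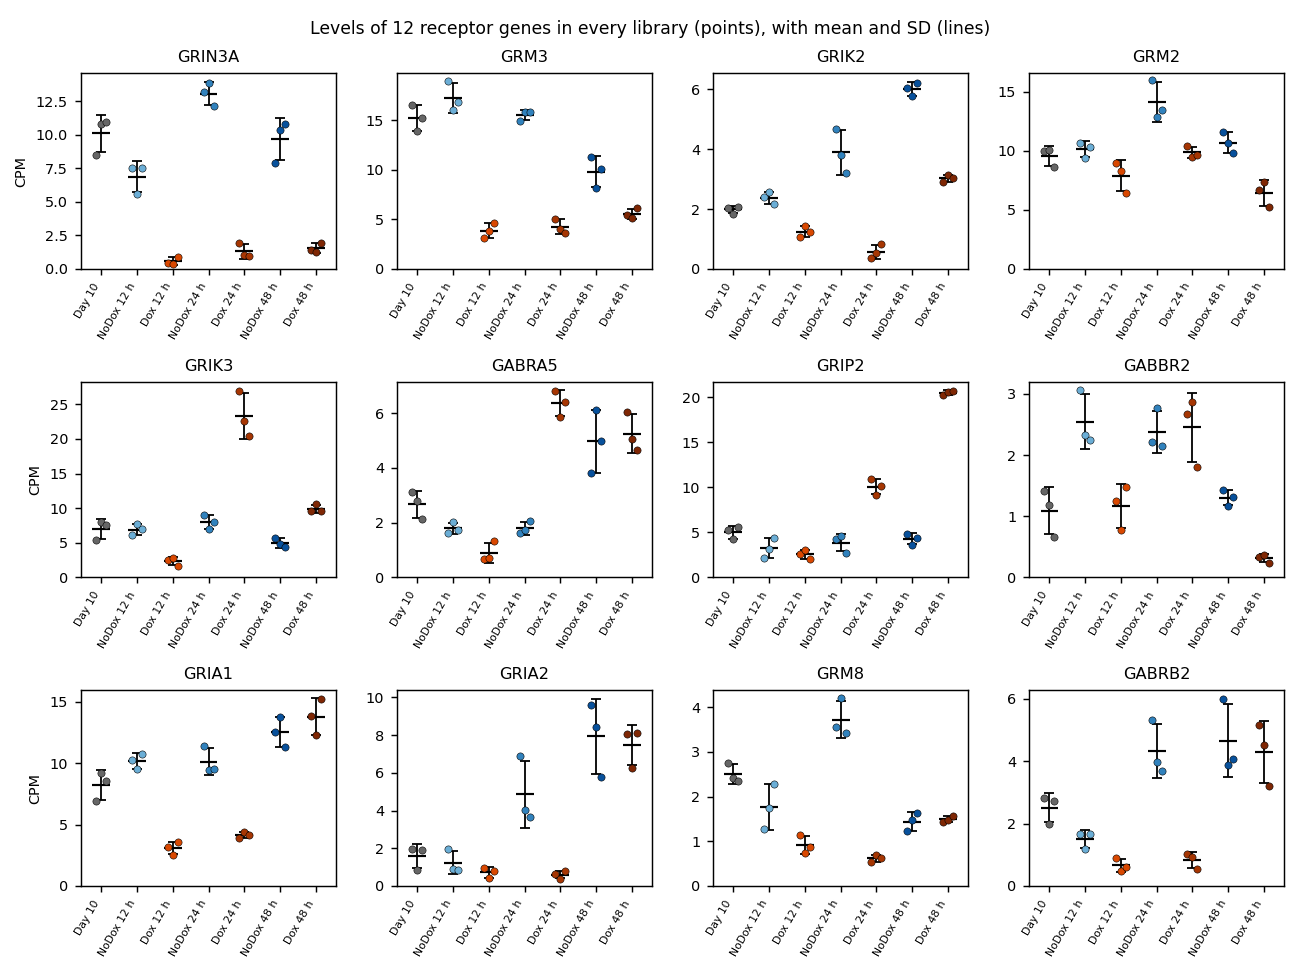
CPM of 12 receptor genes in every library (points), with the group mean and SD (lines, n = 3), for Day 10 and for NoDox (blue) and Dox (orange to brown) at 12, 24 and 48 h. GRIN3A stays below 2 CPM in all Dox libraries, GRIK3 exceeds 20 CPM only in Dox at 24 h, GRIP2 reaches 20.2 to 20.7 CPM in Dox at 48 h, and GRIA1, GRIA2, GRM8 and GABRB2 are low in Dox at 24 h and overlap at 48 h.

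Among the metabotropic glutamate receptors, GRM2 and GRM3, the group that lowers cyclic AMP and is found on presynaptic endings and glia, were lower with Dox at all 3 times. Of the 7 such genes measured, 1 was higher and 3 lower at 12 h, 4 were lower at 24 h and 2 at 48 h, with medians of 0.21, -0.88 and 0.10. The called shares of all features were 39.7%, 33.9% and 18.2%. GRM3 (chromosome 7, 86643909 to 86864879, plus strand) was at 19, 16 and 16.8 CPM without and 3.15, 3.77 and 4.64 CPM with Dox at 12 h (-2.18 ± 0.14, adjusted p 1.45e-13). At 24 h it was at 15, 15.9 and 15.8 and 5.07, 4.00 and 3.62 CPM (-1.87 ± 0.14, adjusted p 4.77e-12). At 48 h it was at 11.3, 8.12 and 10.0 and 5.42, 5.09 and 6.12 CPM (-0.83 ± 0.15, adjusted p 0.000153). The groups were apart each time, and the NoDox level itself was lower at 48 h than at Day 10 (-0.63 ± 0.13). GRM3 shares 18.9% of its exonic bases with the antisense gene GRM3-AS1, and the strand setting of the counting is not given in the sources used here. GRM2 (chromosome 3, 51707068 to 51718613, plus strand) changed less. It was at 16, 12.8 and 13.5 CPM without and 10.4, 9.48 and 9.68 CPM with Dox at 24 h (-0.52 ± 0.12, adjusted p 0.00109). At 48 h its values were 11.6, 10.7 and 9.78 and 6.69, 7.38 and 5.21 CPM (-0.73 ± 0.14, adjusted p 0.000362). The 12 h call of GRM2 (-0.35 ± 0.13, adjusted p 0.0299) ended without Dox replicate 3, one of the libraries that stood apart (-0.24, adjusted p 0.156). It also ended without NoDox replicate 1 (adjusted p 0.0953) or 3 (0.0773), with library totals (0.279) and in a fit of only the groups compared (0.0582).

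GRM8 (chromosome 7, 126438598 to 127253093, minus strand), a presynaptic receptor of the same G protein class, fell at 12 h from 1.27, 1.74 and 2.29 to 1.14, 0.731 and 0.866 CPM (-0.95 ± 0.24, adjusted p 0.0022). At 24 h it fell further, to 0.536, 0.696 and 0.633 CPM against 3.56, 4.2 and 3.42 CPM in NoDox (-2.57 ± 0.23, adjusted p 5.03e-10). At 48 h it was at 1.22, 1.48 and 1.62 CPM without and 1.42, 1.49 and 1.58 CPM with Dox (0.05 ± 0.25, adjusted p 0.918), with overlapping libraries. GRM4, GRM5 and GRM7 were at most 1.42 CPM in every library and were not called at 12, 24 or 48 h. GRM5 shares 50.2% of its exonic bases with GRM5-AS1. GRM4 gave 1.34 ± 0.64 (adjusted p 0.098) at 12 h and was called there with library totals (0.0489). GRM5 gave -0.88 ± 0.38 (adjusted p 0.0748) at 24 h and was called lower with only the groups compared (0.0300) and without NoDox replicate 2 (0.0388).

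Of the 11 GABA-A subunit genes, 5 were higher and 2 lower with Dox at 12 h, 1 higher and 6 lower at 24 h, and 1 and 1 at 48 h, with medians of 0.47, -0.42 and -0.10. The called shares were 63.6%, 63.6% and 18.2%, against 39.7%, 33.9% and 18.2% of all features. Several of these genes lie in clusters. On chromosome X (hg38), GABRE (151953124 to 151974680), GABRA3 (152166234 to 152451315) and GABRQ (152637895 to 152657542), for epsilon, alpha and theta subunits, all rose at 12 h. GABRA3 was at 3.57, 3.15 and 3.34 CPM without and 8.48, 6.77 and 8.61 CPM with Dox (1.24 ± 0.13, adjusted p 1.13e-08). GABRQ was at 2.85, 3.34 and 4.7 and 9.76, 13 and 9.84 CPM (1.57 ± 0.17, adjusted p 1.35e-08), and GABRE at 2.5, 3.56 and 3.74 and 6.55, 6.62 and 4.84 CPM (0.88 ± 0.18, adjusted p 0.000282). The libraries of all 3 genes were apart at 12 h. The NoDox level of GABRA3 had itself fallen between Day 10 and 12 h, from 10.6, 8.54 and 8.53 CPM (-1.44 ± 0.14, adjusted p 3.96e-09), and so had that of GABRQ, from 5.85, 5.37 and 6.67 CPM (-0.71 ± 0.19, adjusted p 0.00405).

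At 24 h the same X-linked genes gave 0.15 ± 0.19 for GABRE, -0.34 ± 0.12 for GABRA3 (adjusted p 0.0266) and -0.45 ± 0.17 for GABRQ (adjusted p 0.0398). The GABRA3 call ended with no filter (0.0726) and without NoDox replicate 1 or 2 or Dox replicate 2 or 3 (0.0545 to 0.102), and the GABRQ call without any one library other than NoDox replicate 1 (0.0775 to 0.131). None of the 3 was called at 48 h (-0.10, -0.00 and -0.10).

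On chromosome 15, GABRA5 (26866911 to 26949208) and GABRG3 (26971181 to 27541984), neighbours for alpha and gamma subunits, moved differently from each other. GABRA5, whose product is a subunit of extrasynaptic receptors, was at 1.63, 2.01 and 1.71 CPM without and 0.68, 0.693 and 1.33 CPM with Dox at 12 h (-1.04 ± 0.26, adjusted p 0.00211). At 24 h it was higher with Dox, 6.8, 5.87 and 6.42 CPM against 1.6, 1.72 and 2.05 CPM (1.84 ± 0.20, adjusted p 1.05e-08). By 48 h NoDox had reached 3.82, 6.13 and 4.97 CPM and Dox was at 6.03, 5.04 and 4.67 CPM (0.08 ± 0.19, adjusted p 0.823). GABRG3 rose at 12 h (0.64 ± 0.14, adjusted p 0.00069) and was lower at 48 h (-0.55 ± 0.16, adjusted p 0.0175), the latter ending without NoDox replicate 2 or 3 or Dox replicate 1 or 3 (0.0512 to 0.0782).

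GABRB2 (chromosome 5, 161288429 to 161549044, minus strand), for a beta subunit common in synaptic receptors, fell at 24 h. It was at 5.33, 3.99 and 3.7 CPM without and 1.03, 0.913 and 0.543 CPM with Dox (-2.39 ± 0.26, adjusted p 2.05e-08). GABRB2 was already lower at 12 h, 0.894, 0.462 and 0.612 against 1.68, 1.19 and 1.67 CPM (-1.18 ± 0.32, adjusted p 0.00378). At 48 h its libraries overlapped, 6.00, 3.88 and 4.08 CPM without and 5.15, 4.51 and 3.21 CPM with Dox (-0.11 ± 0.22).

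**Figure D5:**
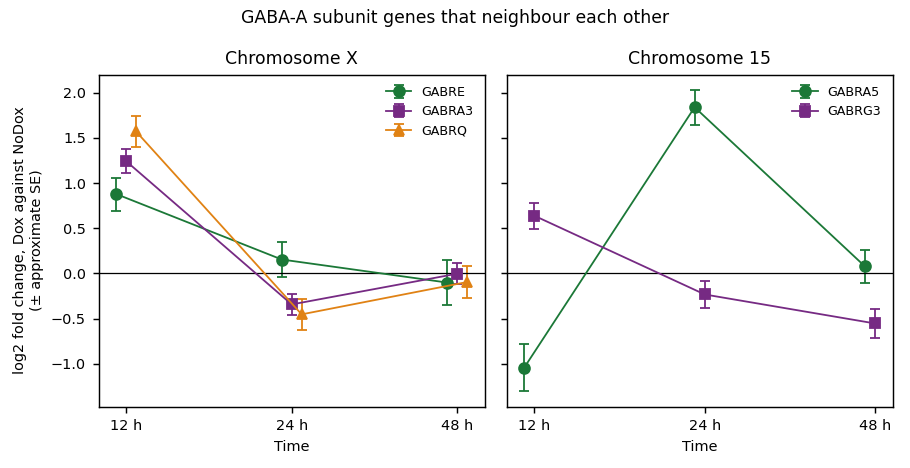
Log2 fold change of Dox against NoDox (± approximate standard error) at 12, 24 and 48 h for neighbouring GABA-A subunit genes on chromosomes X and 15. The 3 X-linked genes lie at 0.88 to 1.57 at 12 h, and the chromosome 15 genes part at 24 h, where GABRA5 is at 1.84.

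GABRA2 on chromosome 4, for the alpha subunit common in embryonic forebrain, was lower with Dox at 24 h, 2.64, 2.7 and 2.89 against 4.34, 4.41 and 4.47 CPM (-0.68 ± 0.16, adjusted p 0.00102). It was higher at 48 h, 11.1, 10.2 and 10.00 against 7.38, 7.41 and 7.58 CPM (0.49 ± 0.14, adjusted p 0.0124; 0.0689 without Dox replicate 1). Its cluster neighbours GABRG1, GABRA4 and GABRB1 were not among the 40. GABRD, for the delta subunit, had 2, 7 and 8 reads in the NoDox and 34, 21 and 6 reads in the Dox libraries at 12 h (1.59 ± 0.53, adjusted p 0.0167). This call ended with limma (0.0621) and without Dox replicate 1 (0.142) or NoDox replicate 1 (0.0904). GABRR2, for a rho subunit, was not called, with 0.47 ± 0.37, -0.61 ± 0.35 and 0.37 ± 0.43 at the 3 times, except at 24 h without NoDox replicate 2 (adjusted p 0.0487).

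The GABA-B subunit genes parted at 48 h. GABBR2 (chromosome 9, 98288109 to 98708935, minus strand), which carries the G protein coupling, was at 1.43, 1.17 and 1.31 CPM in NoDox and 0.329, 0.372 and 0.242 CPM in Dox (-2.02 ± 0.39, adjusted p 0.000387). These Dox values were the lowest of all 21 libraries. It was also lower at 12 h, 1.25, 0.77 and 1.48 against 3.06, 2.33 and 2.24 CPM (-1.14 ± 0.26, adjusted p 0.000682), but not at 24 h, 2.68, 2.87 and 1.81 against 2.21, 2.77 and 2.15 CPM (0.05 ± 0.23, adjusted p 0.892). GABBR1 was at 90.8, 89.5 and 99.1 CPM without and 98.5, 101 and 109 CPM with Dox at 48 h (0.14 ± 0.09, adjusted p 0.312) and was not called at 12, 24 or 48 h. At 24 h its log2 fold change was 0.20 ± 0.09 (adjusted p 0.0939). That difference was called with no filter (0.0258), with only the groups compared (0.00133) and without both libraries that stood apart (0.00325).

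Glycine receptor genes were low. GLRB, for the beta subunit that anchors the receptor, was at 4.49, 3.69 and 3.65 CPM without and 2.27, 2.39 and 2.4 CPM with Dox at 24 h (-0.76 ± 0.18, adjusted p 0.00136). Its log2 fold change was 0.03 ± 0.16 at 12 h and -0.03 ± 0.20 at 48 h. GLRA3, an alpha subunit, had 21, 16 and 22 reads in the 12 h NoDox libraries and 2, 0 and 1 in the Dox libraries, 59 against 3 in all. That is a ratio of Dox to NoDox per library size of 0.0444 (95% exact counting interval 0.00890 to 0.136). The interval is for counting error only and leaves out the spread between libraries. In the edgeR test the adjusted p was 4.85e-06. The NoDox level of GLRA3 at 12 h was itself called higher than at Day 10. At 24 h GLRA3 had 27 reads in NoDox and 5 in Dox (-2.18 ± 0.70, adjusted p 0.0156), a call that ended without NoDox replicate 2 or 3 or Dox replicate 2 or 3 (0.0510 to 0.0702). GLRA4, which shares 22.1% of its exonic bases with another feature on its own strand, was called at no time, with 0.32 ± 0.82, -0.89 ± 0.76 and -0.24 ± 0.63.

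Without doxycycline the receptor genes also changed over the 2 days. These 3 comparisons share the Day 10 libraries. At 12 h, 5 of the 40 were higher than at Day 10 and 9 lower (31.8% of all features called, 15.5% higher and 16.3% lower). At 24 h, 12 were higher and 0 lower (17.3% called, 8.84% higher and 8.47% lower). At 48 h, 14 were higher and 5 lower (41.7% called, 21.4% higher and 20.2% lower). Libraries did not overlap for 17 of the 40 genes at 12 h (43.8% of all features), 18 at 24 h (36%) and 19 at 48 h (48%). Several of these counts rested on 1 library: 3 were higher at 12 h without Day 10 replicate 3, and 4 were lower at 12 h without NoDox replicate 1 or 2. Likewise 1 was lower at 24 h and 3 at 48 h without Day 10 replicate 3. In the lower direction at 24 h, edgeR, DESeq2 and limma each called 0 of the 40, and 1 had an unadjusted p below 0.05.

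GRIA2 had the largest increase without doxycycline among genes above 1 CPM. It was at 1.97, 0.836 and 1.9 CPM at Day 10 and 1.94, 0.914 and 0.835 CPM at 12 h. It then reached 6.91, 4.03 and 3.65 CPM at 24 h (1.70 ± 0.33, adjusted p 0.000944) and 9.61, 8.43 and 5.75 CPM at 48 h (2.37 ± 0.32, adjusted p 4.39e-06). Increases at 48 h were also called for GRIK2 (1.60 ± 0.18, adjusted p 7.75e-08) and GABRA2, from 3.31, 1.98 and 2.61 to 7.38, 7.41 and 7.58 CPM (1.54 ± 0.16, adjusted p 1.21e-08). GABBR2 was higher than at Day 10 at 12 h (1.26 ± 0.27, adjusted p 0.000636) and 24 h (1.17 ± 0.27, adjusted p 0.00268) and was not called at 48 h (0.31 ± 0.30). Among the decreases at 48 h were GRM8 (-0.78 ± 0.23), GABRE (-0.69 ± 0.23), GRM3 (-0.63 ± 0.13), GRIK3 (-0.52 ± 0.17) and GRIP1 (-0.41 ± 0.12). The GABRE call (adjusted p 0.0145) ended without Day 10 replicate 3 (0.0853) or NoDox replicate 1 (0.0906). The GRIK3 call (adjusted p 0.0122) ended without Day 10 replicate 2 (0.0867) or 3 (0.0528) or NoDox replicate 3 (0.0668). The neuron markers summed to 1695 to 1746 CPM at Day 10 and 2305 to 2733 CPM at 48 h in NoDox, and their part in these results was not tested.

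Proteins that assemble, traffic or anchor these receptors were described from lists chosen by known function, with earlier results of these data known. Of 27 tested genes for glutamate receptor auxiliary and scaffold proteins, 7 were higher and 6 lower with Dox at 12 h, 4 and 8 at 24 h, and 7 and 5 at 48 h, with list medians of -0.02, -0.08 and -0.03. The called shares were 48.1%, 44.4% and 44.4%, against 39.7%, 33.9% and 18.2% of all features. FRRS1L, which helps assemble AMPA receptors, rose at all 3 times (1.94 ± 0.12, 0.73 ± 0.11 and 0.58 ± 0.10). CACNG5, an AMPA receptor auxiliary subunit, fell at 24 h (-5.15 ± 0.45, adjusted p 2.07e-10) and 48 h (-2.93 ± 0.53, adjusted p 0.00023). DLG2, a postsynaptic scaffold, fell at all 3 times (-0.61 ± 0.14, -1.49 ± 0.14 and -0.66 ± 0.12). The auxiliary subunits SHISA6 and SHISA9 fell at 12 h (-1.19 ± 0.17 and -0.79 ± 0.14) and rose at 24 h (0.56 ± 0.14 and 1.12 ± 0.13) and 48 h (0.45 ± 0.16 and 0.75 ± 0.14), the order of directions seen for GRIK3.

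Of 11 tested partner and scaffold genes of GABA and glycine receptors, 4 were higher and 3 lower with Dox at 12 h, 0 and 4 at 24 h, and 0 and 2 at 48 h, with list medians of 0.04, -0.21 and -0.0006. The called shares were 63.6%, 36.4% and 18.2%, against 39.7%, 33.9% and 18.2% of all features. At an unadjusted p below 0.05, 0 of the 11 were higher at 24 h and 1 at 48 h in the edgeR test. KCTD8, an auxiliary subunit of GABA-B receptors, was lower each time (-3.11 ± 0.41, -3.33 ± 0.42 and -2.42 ± 0.53), and so was SLITRK3, a postsynaptic adhesion protein of inhibitory synapses (-0.68 ± 0.13, -0.39 ± 0.12 and -0.38 ± 0.13).

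Among 25 tested genes for transmitter synthesis and transport, 5 were higher and 10 lower with Dox at 12 h, 10 and 6 at 24 h, and 5 and 4 at 48 h, with medians of -0.16, 0.03 and 0.04. The called shares were 60%, 64% and 36%, against 39.7%, 33.9% and 18.2% of all features. SLC17A6, a vesicular glutamate transporter, was lower at 12 h (-3.29 ± 0.44, adjusted p 6.27e-06) and 24 h (-1.44 ± 0.30, adjusted p 0.000841), and SLC17A7, another, at 24 h (-1.30 ± 0.11) and 48 h (-0.49 ± 0.11). GAD1, which makes GABA, was lower at 12 h (-1.38 ± 0.18, adjusted p 1.88e-06) and 24 h (-0.76 ± 0.16, adjusted p 0.000682). It was higher at 48 h, 49.9, 43.5 and 44.1 against 32.8, 24.1 and 24.6 CPM (0.75 ± 0.15, adjusted p 0.00127). SLC32A1, the vesicular GABA transporter, was lower at 12 h (-0.96 ± 0.28) and higher at 48 h (0.98 ± 0.20). GLUL, the glutamine synthetase of glial cells, was lower at 12 h (-0.30 ± 0.06) and higher at 24 h (0.96 ± 0.06) and 48 h (0.44 ± 0.06).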

How the data were processed

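PolyA RNA was sequenced in 21 libraries, 7 groups of 3, grouped by the labels. The authors deposited raw read counts; per the submitters' processing notes the build was hg38 and the tools STAR 2.7.9, Subread 2.0.3 and DESeq2. For the counting step, strand setting and annotation were not stated in what was read here. A second deposited table holds a signal value, each count divided by a factor that is constant within a sample.

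Members and lists were chosen with earlier results of these data known. Counts were fitted with edgeR 4.0.16 (R 4.3.3; quasi-likelihood F test, robust, TMM, filterByExpr, all 7 groups in 1 fit with 14 residual degrees of freedom, 9 comparisons), with adjusted p by Benjamini-Hochberg over 19655 features holding 99.92% of the counts. The ± beside a fold change divides the size of the log2 value by the root of F. Procedures were tested on simulated data. Members were chosen for library values by adjusted p below 0.05, a mean of at least 1 CPM and a large log2 fold change. The 8 largest were taken for each Dox against NoDox comparison and the 4 largest for each other comparison, 20 genes in all. Separate libraries were also required, except for the differences of effects. Some genes are not reported here, 2 of these 20 included; other members were given values where their role was described. Alternatives were DESeq2 1.42.0, its size factors, library totals, no filter, limma 3.58.1 on log2(normalized count + 1), only the groups compared, a replicate block and each library left out. For Dox against NoDox, residuals of same-numbered replicates correlated at 0.249, 0.106 and 0.108 at 24 h and at 0.299, 0.212 and 0.0625 at 48 h. At 12 h the correlations were 0.0719, 0.0875 and -0.137.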

Additional observations from a re-analysis of the deposited data

Results flagged for a closer look

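By a test of the difference itself, the Dox effect differed between 12 and 24 h for 18 of the 40 receptor genes (30.9% of all features called). It differed between 24 and 48 h for 14 (25.8%) and between 12 and 48 h for 19 (34.4%). The 9 genes given here are from among the 4 largest differences for each pair of times. Differences are on the log2 scale, from edgeR's quasi-likelihood test with Benjamini-Hochberg adjustment (n = 3 libraries per group). Each pair of differences shares the libraries of 1 time, so they are not independent.

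Between 12 and 24 h the Dox effect on GRIK3 rose by 3.09 ± 0.22 (adjusted p 6.18e-12) and that on GABRA5 by 2.88 ± 0.33 (adjusted p 5.33e-08); both went from lower with Dox in 3 of 3 libraries to higher in 3 of 3. The effect on GRIA2 changed by -2.32 ± 0.62 (adjusted p 0.00641).

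Between 24 and 48 h the effect on GRIA2 changed by 2.97 ± 0.47 (adjusted p 6.62e-05), that on GRM8 by 2.62 ± 0.35 (adjusted p 1.7e-06) and that on GABRB2 by 2.28 ± 0.35 (adjusted p 1.33e-05), each from lower with Dox to overlapping libraries. GABBR2 went the other way, by -2.07 ± 0.45 (adjusted p 0.00106).

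Between 12 and 48 h the effect changed by 2.61 ± 0.28 for GRIP2 (adjusted p 1.99e-08), 2.55 ± 0.24 for GRIK3 (adjusted p 1.54e-09), 2.03 ± 0.22 for GRIN2A (adjusted p 1.62e-08) and 1.87 ± 0.19 for GRIA1 (adjusted p 5.35e-09).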

How the results depend on the processing

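No call of the 20 genes chosen for library values was reversed at 12, 24 or 48 h: of their values under an alternative, 796 kept direction and side of the threshold, 34 lost the call and 7 gained one. Of the receptor genes called with Dox, 20 of 24 at 12 h, 15 of 23 at 24 h and 7 of 13 at 48 h kept the call in every alternative run. Counts that moved by over 1.5 times were, with library totals, 3 genes higher at 48 h (5 in the main test), 7 with a lower effect at 48 than at 24 h (3) and 6 with a higher effect at 48 than at 12 h (10). The count lower at 48 than at 24 h was also 5 with no filter, 6 with only the groups compared and 6 without both libraries that stood apart, an alternative chosen after seeing the data. Library totals shifted the median of all features by 0.19 at 12 h. The replicate block left 24 calls at 12 h and 13 at 48 h and gave 22 in place of 23 at 24 h, losing GRIN3B; it changed no other Dox call.

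Leaving out 1 library, the counts higher and lower with Dox were 10 to 12 and 11 to 15 at 12 h, 4 each time and 13 to 18 at 24 h, and 2 to 6 and 5 to 7 at 48 h. For NoDox against Day 10 they were 3 to 5 and 4 to 9 at 12 h, 9 to 12 and 0 to 1 at 24 h, and 11 to 14 and 3 to 5 at 48 h. For differences of the Dox effect they were 5 to 6 and 11 to 14 (24 less 12 h), 10 to 12 and 3 to 4 (48 less 24 h), and 6 to 11 and 8 to 10 (48 less 12 h). Of the 7 receptor genes with no Dox call, 5 were called under at least 1 alternative. GRM4 and GRM7 had 157 and 151 reads over all 21 libraries, which limits what can be detected for them.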
